A study of Mus musculus with 6 samples.

Results

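The genes described here build the apical junctions and the apical-basal polarity of cortical progenitor cells. They are 10 genes chosen by symbol from the 17348 genes listed: Cdh2, Ctnnb1 and Ctnna2 (cadherin-catenin adhesion), Pard3, Pard6a and Prkci (the Par complex), Tjp1, Afdn and Numb (junction scaffolds and an endocytic regulator), and Llgl1 (a basolateral protein). All 10 were found, and all 10 passed the filter on low counts. The rule that names them uses symbols only, although earlier results of these data were known when they were chosen. RNA was sequenced from the brain cortex of mouse embryos at E13.5, with 3 libraries from Ybx1 cKO embryos (Nestin-Cre, Ybx1 fl/fl) and 3 from their littermate controls, labelled WT, which the study elsewhere describes as carrying the floxed alleles without Cre. Nestin-Cre acts in neural progenitors, the deletion is inherited by the cells they produce, and cells of other origin are not its main targets. The libraries are of whole tissue rather than of sorted progenitors. Whether a library held 1 embryo or several is not stated. The comparison asks whether loss of Ybx1, an RNA-binding protein that reads 5-methylcytosine, goes with a change in the mRNA level of the junction and polarity genes at the start of cortical neurogenesis.

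Radial glial cells line the ventricle as a pseudostratified epithelium. Their apical endfeet are held together by a belt of adherens junctions in which N-cadherin binds across the cell gap, beta-catenin binds the cadherin tail, and alpha-catenin connects the complex to actin. The Par complex of Par3, Par6 and atypical protein kinase C sits at the apical side, while Lgl proteins act on the basolateral side and are kept out of the apical domain through phosphorylation by the kinase. Progenitors keep this belt while they divide and loosen it when they leave the ventricular zone as neurons. In tissue RNA a fall in the number of cells of a type and a fall in the RNA of each cell cannot be told apart.

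The libraries held between 15907486 and 16282921 estimated counts and were close in depth. Ybx1 reached 1021, 528 and 1220 CPM (read counts scaled to a common library size with TMM factors) in WT replicates 1 to 3 and 83.1, 117 and 147 CPM in cKO replicates 1 to 3. With its intermediate level the library labelled WT replicate 2 goes partly against its label. All 3 cKO libraries were below it (log2 fold change of cKO over WT -2.998, SE 0.33), with an adjusted p of 0.128 in edgeR's quasi-likelihood test. Actb, a control, differed by 0.04 on the log2 scale. The library of cKO replicate 3 also stood apart. Its summed TPM (a level per transcript length) of 12 epidermis markers was 355, against 2.42 to 3.57 in the other 5 libraries, and that of 7 meninges and mesenchyme markers was 261 against 4.58 to 7.65. Of those 7 markers 5 were highest in cKO replicate 3, whereas Foxc1 and Foxd1 were highest in WT replicate 1. Finally, both libraries numbered 1, 1 of each genotype, differed from the other 4 in many genes. The labels do not say what a shared number means, and the values below are therefore given with and without these libraries.

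In brief, transcript levels of the 10 genes were nearly the same in cKO and WT cortex. Their log2 fold changes (cKO over WT) lay between -0.085 and 0.032, and the genotypes overlapped for every gene. With edgeR's quasi-likelihood test 0 of the 10 genes passed an adjusted p of 0.05 and 0 passed an unadjusted p of 0.05, and the adjusted p of each of the 10 was 0.99995. Over all 13340 genes tested the adjusted threshold was passed by 0.0%, that is by 0 genes, and the unadjusted one by 476 genes or 3.57% (1.75% higher and 1.81% lower in cKO), so a count of 0 among 10 is near the background. DESeq2, limma-voom and edgeR's exact test also called 0 of the 10. Libraries of the 2 genotypes did not overlap for 9.04% of all genes (4.21% with cKO above and 4.83% with cKO below) and for 0 of the 10. The median of the log2 fold changes was -0.0080 for the 10 genes and 0.0019 for all genes. The median size of the change was 0.013 for the 10 genes and 0.078 for all genes. Of the 10 values 8 were below 0 and 2 above, and for all but Cdh2 and Tjp1 leaving out 1 library could turn the sign.

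**Figure D1:**
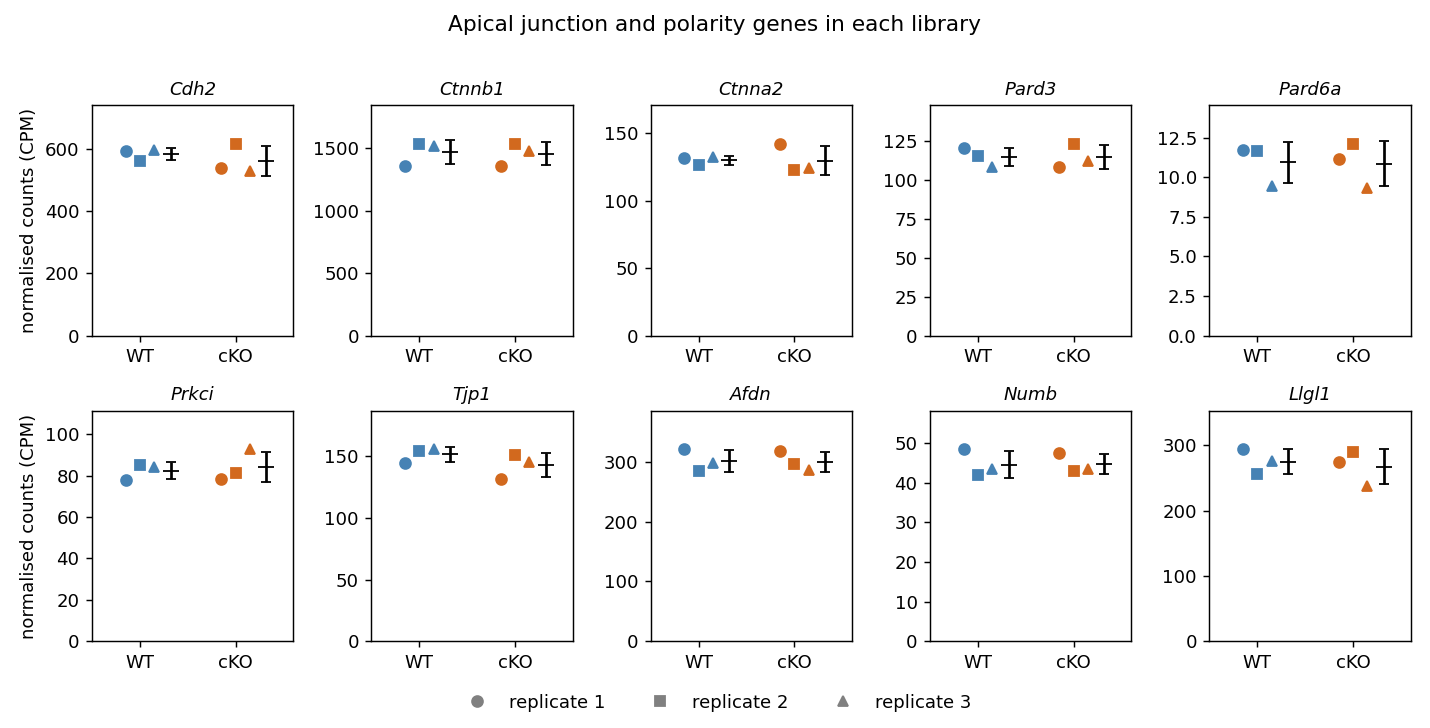
Normalised counts (CPM, vertical axis from 0, one scale per gene) of the 10 genes in the 3 WT libraries (blue) and the 3 cKO libraries (orange). Marker shapes give the replicate number, and the bar beside each group is the mean ± SD (n = 3). The genotypes overlap in all 10 panels.

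The adhesion genes come first. Cdh2 encodes N-cadherin, the classical cadherin of the neural tube and the transmembrane part of the belt. Its normalised level was 592, 562 and 596 CPM in WT replicates 1 to 3 and 537, 615 and 527 CPM in cKO replicates 1 to 3. The highest and the 2 lowest libraries were all cKO libraries, and the WT values fell between them. The mean was 583 ± 19.0 CPM in WT and 560 ± 48.6 CPM in cKO (SD, n = 3 each). The resulting log2 fold change was -0.060 (SE 0.085, 95% interval -0.26 to 0.14, unadjusted p = 0.501, edgeR). This interval leaves room for a fall to 0.836 of the WT level or a rise to 1.10 times it.

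Ctnnb1 encodes beta-catenin, which links cadherins to alpha-catenin and is also the transcriptional coactivator of canonical Wnt signaling. It was measured at 1356, 1534 and 1518 CPM in WT replicates 1 to 3 and at 1354, 1531 and 1479 CPM in cKO replicates 1 to 3. Libraries with the same number lay close to each other, and the lowest values were those of the libraries numbered 1 in both genotypes. The means were 1469 ± 98.1 CPM in WT and 1454 ± 91.2 CPM in cKO (SD, n = 3 each). Between genotypes the log2 fold change was -0.015 (SE 0.091, 95% interval -0.22 to 0.19, unadjusted p = 0.876, edgeR). In the annotation used here to look for overlaps (GENCODE M21, GRCm38) an exon of Ulk4 on the opposite strand overlaps Ctnnb1. Which annotation the counts were made with, and whether counting used strand, is not stated.

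Ctnna2 encodes alphaN-catenin, the alpha-catenin of the nervous system, which connects the cadherin complex to actin filaments. Its level was 132, 126 and 132 CPM in WT replicates 1 to 3 and 142, 123 and 124 CPM in cKO replicates 1 to 3. The WT values fell inside the range of the cKO values, in which replicate 1 was the high library. The log2 fold change was -0.0033 (SE 0.076, 95% interval -0.18 to 0.17, unadjusted p = 0.967, edgeR). Its mean was 130 CPM in both genotypes, with an SD of 3.32 in WT and 10.8 in cKO (n = 3 each).

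In the Par complex, Pard3 encodes Par3, the scaffold that positions the complex at the junction. The values were 120, 115 and 109 CPM in WT replicates 1 to 3 and 108, 123 and 112 CPM in cKO replicates 1 to 3. The order of the libraries differed between the genotypes and the ranges overlapped almost fully. For Pard3 the log2 fold change was -0.0021 (SE 0.075, 95% interval -0.17 to 0.17, unadjusted p = 0.979, edgeR). Among the 10 genes this was the change nearest to 0.

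Pard6a encodes Par6 alpha, the adaptor that joins Cdc42 to the atypical kinase. It had the lowest counts of the 10 genes, between 151 and 193 per library. The values were 11.7, 11.6 and 9.44 CPM in WT replicates 1 to 3 and 11.2, 12.1 and 9.29 CPM in cKO replicates 1 to 3. In both genotypes the library numbered 3 was the low one, and the genotypes overlapped. Here the log2 fold change was -0.012 (SE 0.14, 95% interval -0.34 to 0.32, unadjusted p = 0.934, edgeR). With these counts the interval was the widest of the 10 and reached from 0.788 to 1.25 times the WT level, so a moderate change was not detectable for this gene.

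Prkci encodes PKC iota (called PKC lambda in the mouse), the kinase subunit of the complex. It was measured at 77.7, 85.3 and 84.2 CPM in WT replicates 1 to 3 and at 78.6, 81.4 and 92.7 CPM in cKO replicates 1 to 3. The highest library was cKO replicate 3, and the other cKO libraries lay within the WT range. On the log2 scale the fold change was 0.032 (SE 0.082, 95% interval -0.16 to 0.22, unadjusted p = 0.703, edgeR), the largest positive value of the 10. Without cKO replicate 3 it was -0.043, and its sign was reversed in 3 of 18 alternative settings in all.

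Among the scaffolds, Tjp1 encodes ZO-1, a scaffold of tight junctions that in neural progenitors lies at the adherens belt. Its level was 144, 155 and 156 CPM in WT replicates 1 to 3 and 132, 151 and 146 CPM in cKO replicates 1 to 3. The lowest value was that of cKO replicate 1, the highest that of WT replicate 3, and each cKO library was below the WT library of its number. The means were 152 ± 6.32 CPM in WT and 143 ± 9.91 CPM in cKO (SD, n = 3 each). With a log2 fold change of -0.085 (SE 0.075, 95% interval -0.26 to 0.087, unadjusted p = 0.286, edgeR) Tjp1 had the largest change and the smallest p of the 10 genes. That difference was about the size of the SD within a genotype and passed no test.

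Afdn encodes afadin, which ties nectins to actin and to the cadherin complex. The values were 321, 284 and 298 CPM in WT replicates 1 to 3 and 318, 296 and 286 CPM in cKO replicates 1 to 3. Replicate 1 was the high library in both genotypes. The log2 fold change was -0.0037 (SE 0.078, 95% interval -0.18 to 0.18, unadjusted p = 0.963, edgeR). An exon of Tcte2 lies opposite Afdn, so reads of those genes cannot be told apart without strand.

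Numb encodes an endocytic adaptor that inhibits Notch and takes part in cadherin trafficking at the apical endfoot. It was measured at 48.4, 41.9 and 43.4 CPM in WT replicates 1 to 3 and at 47.6, 43.0 and 43.4 CPM in cKO replicates 1 to 3. Again replicate 1 was the high library in both genotypes, and the libraries numbered 3 had the same level. For Numb the log2 fold change was 0.0035 (SE 0.087, 95% interval -0.20 to 0.20, unadjusted p = 0.968, edgeR). An unnamed gene model of the annotation, not listed in the table, overlaps an exon of Numb on the other strand.

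Llgl1 encodes Lgl1, the vertebrate relative of the fly tumor suppressor lethal giant larvae and the basolateral antagonist of the Par complex. Its level was 294, 255 and 276 CPM in WT replicates 1 to 3 and 274, 290 and 238 CPM in cKO replicates 1 to 3. The lowest library was cKO replicate 3 and the highest was WT replicate 1, with the genotypes interleaved between them. Its log2 fold change was -0.040 (SE 0.095, 95% interval -0.26 to 0.18, unadjusted p = 0.682, edgeR). Without cKO replicate 3 it was 0.036, and its sign was reversed in 2 of 18 alternative settings in all. Exons of Flii on the opposite strand overlap Llgl1.

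The size of change that these libraries leave room for can be read from the intervals. For 9 of the 10 genes the 95% interval lay within 1.2-fold in either direction, which held for 26.4% of all genes tested, and Pard6a was the exception. Their mean TPM lay between the 59.6th percentile (Pard6a) and the 99.2nd percentile (Ctnnb1) of the 17348 genes listed. The coefficient of variation between replicates, in the median over the 10 genes, was 5.63% in WT and 7.64% in cKO, and over all genes it was 8.79% and 9.54%. With 3 libraries against 3 the smallest p that an exact permutation test (two-sided) can give for 1 gene is 0.1, and the p-values above come from the model fitted across all genes.

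**Figure D2:**
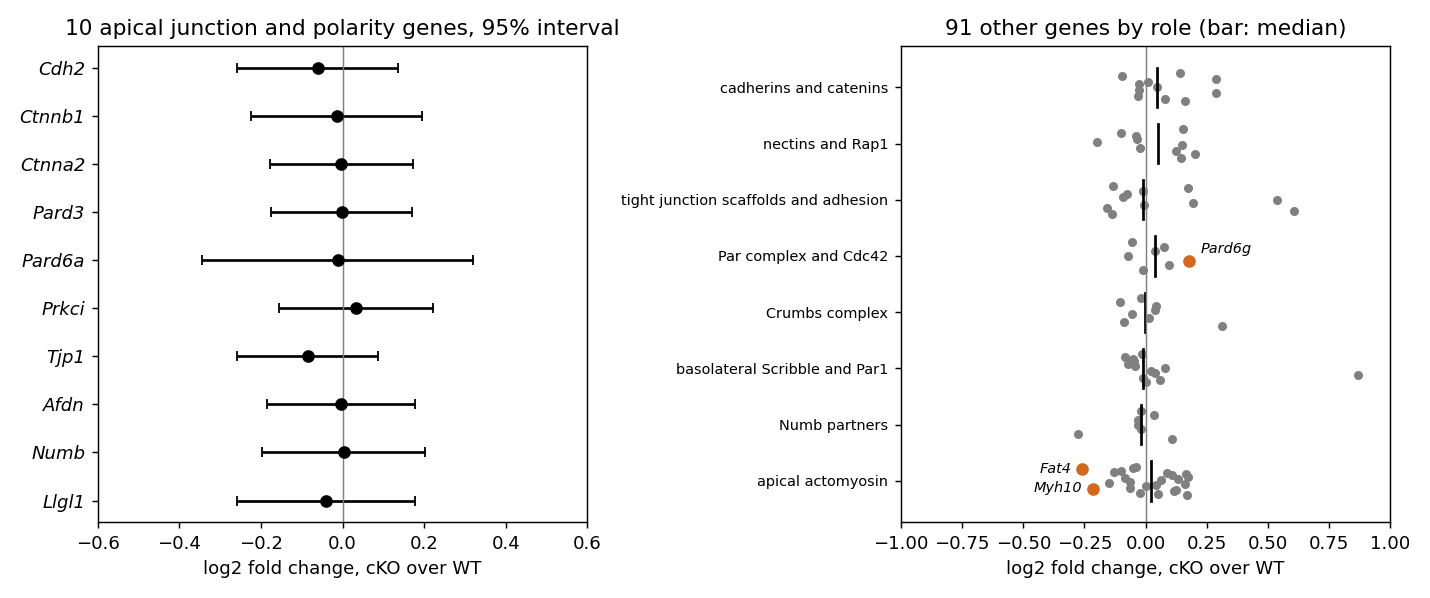
Left, log2 fold change (cKO over WT) of each of the 10 genes with its 95% interval from edgeR. Right, log2 fold changes of 91 other junction and polarity genes by role, with the median of each role as a black bar and the 3 genes with an unadjusted p under 0.05 named in orange. All 10 intervals on the left include 0.

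Levels can be compared between genes on the TPM scale, which corrects for transcript length. Ctnnb1 was the most abundant of the 10 with 919 ± 22.2 TPM (SD, n = 6 libraries), and Cdh2 followed with 263 ± 16.5 TPM. Ctnnb1 was thus 3.49 times as abundant as the cadherin, and the ranges over the 6 libraries were far apart. Llgl1 came next with 138 ± 13.3 TPM, then Afdn with 87.5 ± 7.63 TPM and Ctnna2 with 72.7 ± 6.12 TPM. Afdn exceeded Ctnna2 within each of the 6 libraries, although their ranges over libraries overlapped. Pard3 with 47.5 ± 2.96 TPM and Tjp1 with 47.0 ± 1.83 TPM could not be ordered, since Pard3 was the higher of the pair in 3 of 6 libraries. Prkci had 41.9 ± 2.47 TPM and overlapped in range with Tjp1. Numb had 29.3 ± 3.13 TPM and Pard6a 23.3 ± 2.77 TPM, and their ranges also overlapped. In the Par complex the scaffold Pard3 and the kinase Prkci thus had like levels, and Pard6a was the least abundant of the 10 genes. It was not the major Par6 gene, since Pard6g, which is not among the 10, had 48.0 TPM.

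**Figure D3:**
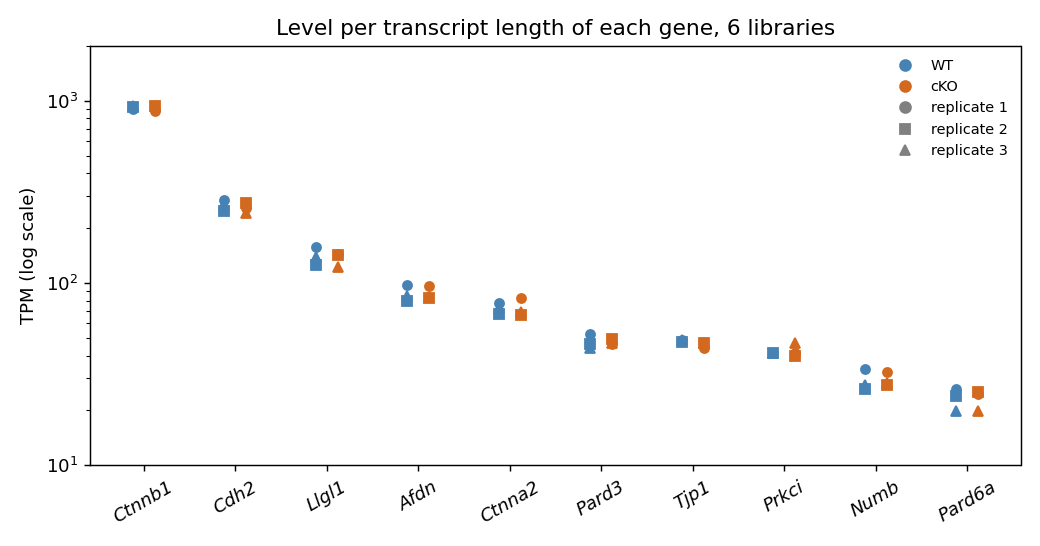
TPM (log scale) of the 10 genes in order of their mean, with the 3 WT libraries in blue, the 3 cKO libraries in orange and a shape for each replicate number. Ctnnb1 lies at a mean of 919 TPM and Pard6a at 23.3 TPM, and the spread of the 6 points of a gene is small beside the distance from the first gene to the last.

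For 7 of the 10 genes the share of a family's TPM taken by each paralog was computed in every library. The families were put together after the values of these genes had been seen. Ctnnb1 made up 97.7% to 98.7% of the sum of beta-catenin and gamma-catenin (Jup), and Llgl1 made up 98.2% to 99.6% of the Lgl sum. Pard3 made up 87.6% to 90.2% of its sum with Pard3b. Ctnnb1 and Llgl1 were therefore nearly the sole source of their family's transcripts in the cortex of either genotype, and Pard3 was the major source in its family. Prkci held 63.5% to 72.4% of its sum with Prkcz, the other atypical kinase. In 3 families the gene described here was the minor form. Ctnna2 held 31.3% to 40.8% of the alpha-catenin sum, in which the epithelial form Ctnna1 was the larger with a mean of 136 TPM. Numb held 22.8% to 28.8% of its sum with Numbl, its close relative. Pard6a held 23.9% to 31.4% of the Par6 sum, Pard6b held 12.3% to 14.5%, and Pard6g was the major form with 55.4% to 62.5%. The shares of WT and cKO libraries overlapped for all paralogs of all 7 families.

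**Figure D4:**
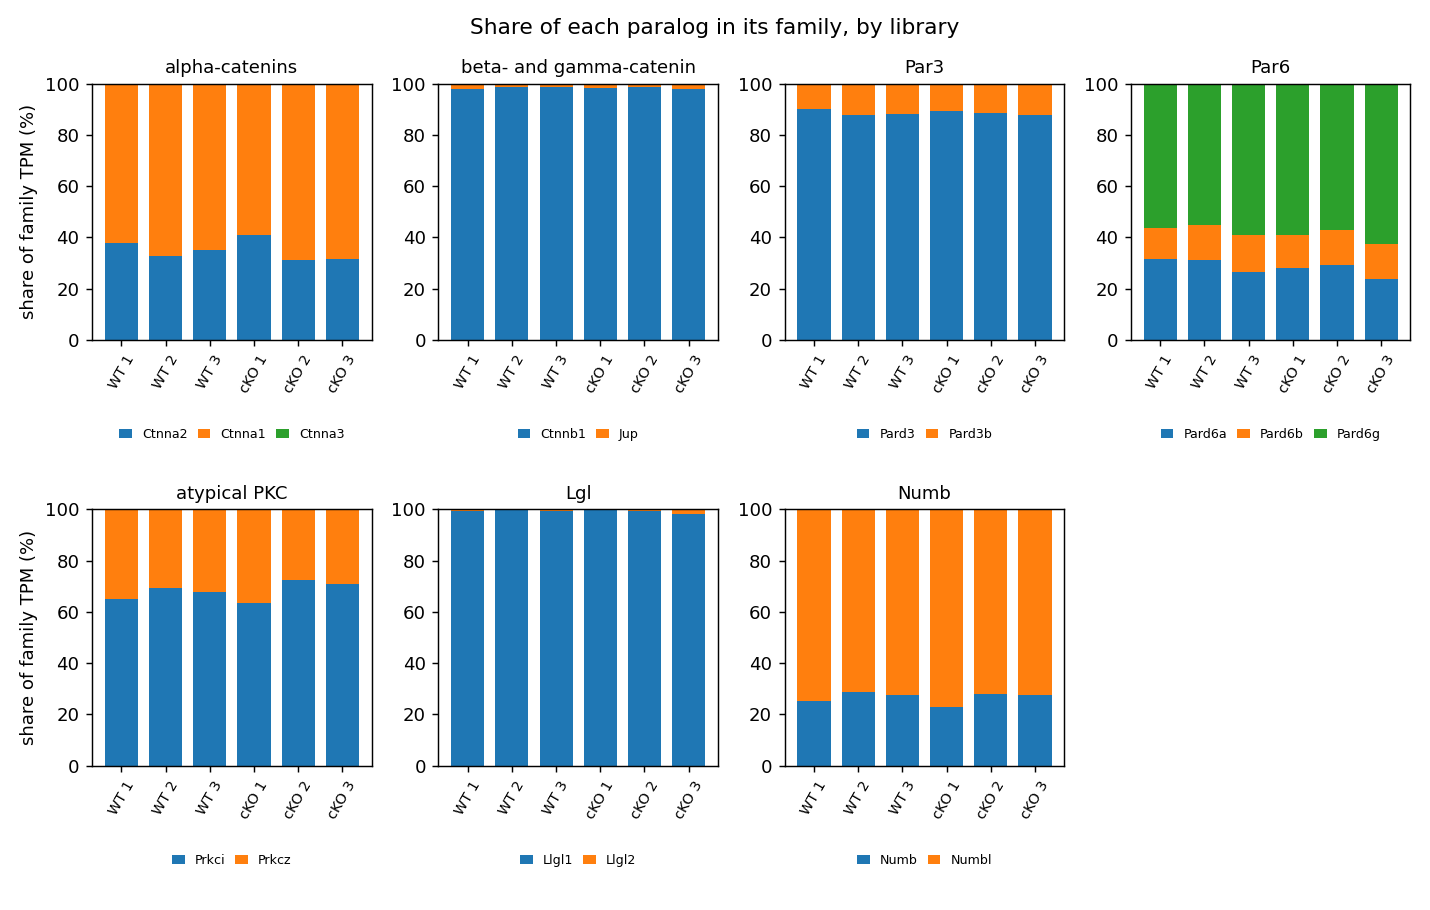
Share (percent, 0 to 100) of the family's summed TPM taken by each paralog in the 3 WT and 3 cKO libraries, 1 panel per family. Ctnnb1 and Llgl1 fill nearly all of their panels and Pard3 fills most of its own. Ctnna2, Pard6a and Numb hold less than 41% of theirs, and the shares of the genotypes overlap.

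Because libraries of the same number may have been handled together, the genotypes were also compared within each number. Among the libraries numbered 1, cKO exceeded WT for 2 of the 10 genes, and the log2 differences lay between -0.15 and 0.11. Among those numbered 2 it did so for 6 genes (-0.066 to 0.18), and among those numbered 3 for 3 genes (-0.21 to 0.14). In number 3 the genes counted as higher include Numb, with a difference of only 3.98e-05. None of the 10 genes was higher in cKO within all 3 numbers, and Ctnnb1 and Tjp1 were lower within all 3. For Ctnnb1 these differences were close to 0, at -0.0030, -0.0026 and -0.037 for numbers 1, 2 and 3. For Tjp1 they were -0.13, -0.036 and -0.094. Such counts were not computed for all genes, so those given here are not read as a result about the 10 genes.

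For 5 of the 10 genes the libraries numbered 1, of both genotypes, lay apart from the other 4, which is near the share over all genes. In CPM, both libraries numbered 1 lay above the other 4 for Afdn (318 to 321 against 284 to 298) and for Numb (47.6 to 48.4 against 41.9 to 43.4). Both lay below the other 4 for Ctnnb1 (1354 to 1356 against 1479 to 1534), Prkci (77.7 to 78.6 against 81.4 to 92.7) and Tjp1 (132 to 144 against 146 to 156). These gaps were modest, with ratios of the means of 1.10 for Afdn, 1.12 for Numb, 0.894 for Ctnnb1, 0.910 for Prkci and 0.909 for Tjp1. Such a separation was common, since it was found for 40.0% of all genes tested (20.0% above and 20.0% below), and 5 of 10 is not far from that share. On the TPM scale the count was again 5, against 43.2% of all genes, but it held for other genes in part: Ctnnb1 stayed below and Afdn and Numb stayed above, while Ctnna2 and Llgl1 replaced Prkci and Tjp1 and lay above.

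Cell type markers moved with the same libraries. The 8 radial glia markers summed to 2388 TPM in WT replicate 1 and 2325 TPM in cKO replicate 1, against 3148 to 3306 TPM in the other 4 libraries, and in CPM 6 of the 8 lay below the other 4 in both. Vim, which encodes the intermediate filament vimentin of radial glia and was the most abundant of them per length, was measured at 724 and 727 CPM in the libraries numbered 1 and at 931 to 1019 CPM in the others. The 7 cortical neuron markers summed to 3909 and 4127 TPM in the libraries numbered 1, against 2996 to 3443 TPM in the others, and in CPM 6 of the 7 lay above the other 4 in both. Between genotypes the sums of radial glia markers overlapped (2388 to 3306 TPM in WT and 2325 to 3222 in cKO), as did those of intermediate progenitor markers (846 to 1082 and 802 to 1001) and of neuron markers (2996 to 3909 and 3086 to 4127). On the TPM scale the most abundant gene of the intermediate progenitor list was Neurog2, at 365 to 391 CPM in WT and 344 to 411 CPM in cKO, and that of the neuron list was Tubb3, at 724 to 872 and 751 to 917 CPM. Whether tissue make-up had a part in the levels of the 10 genes in the libraries numbered 1 was not tested. With both of these libraries left out, a setting chosen after the data were seen, the log2 fold changes of the 10 genes lay between -0.059 and 0.077, and 0 passed an unadjusted p of 0.05.

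**Figure D5:**
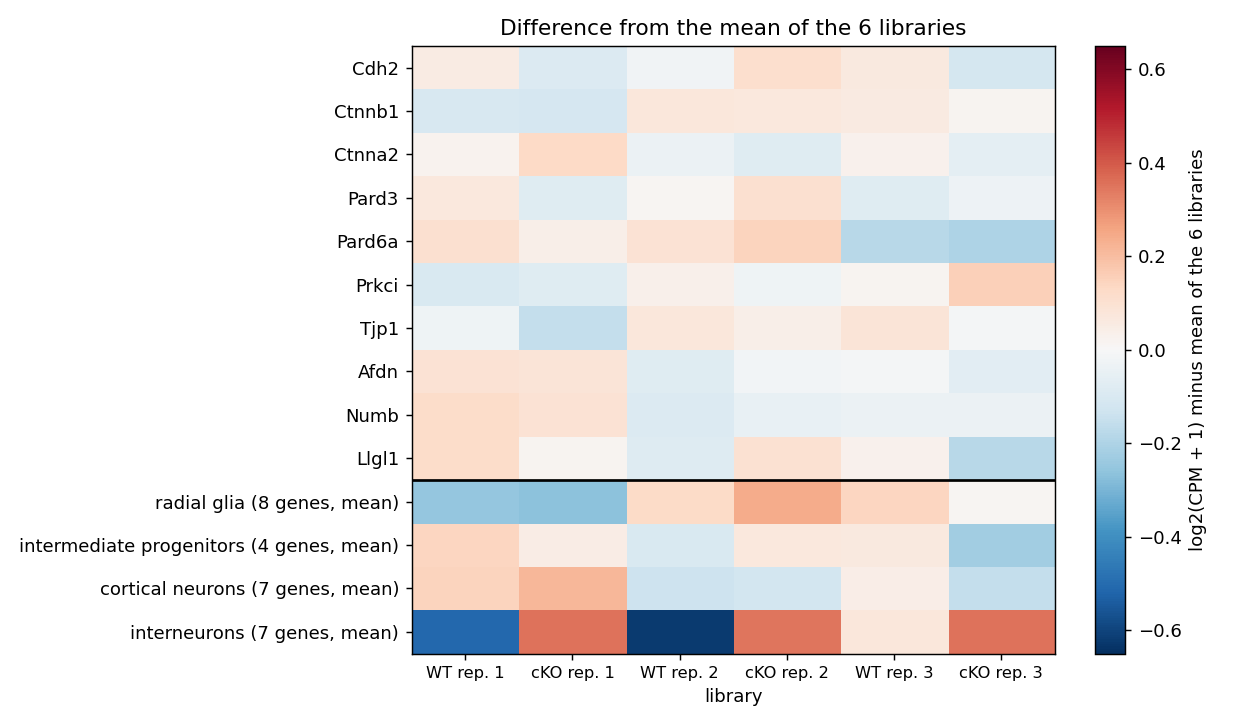
Difference of log2(CPM + 1) from the mean of the 6 libraries (colour scale, log2 units) for the 10 genes and, under the black line, averaged over the markers of 4 cell types, with libraries in pairs by replicate number. Both libraries numbered 1 are blue for radial glia and red for cortical neurons, and the values of the 10 genes stay between -0.20 and 0.15 in all 6 libraries.

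Other markers differed between genotypes or set 1 library apart. The 7 interneuron markers summed to 92.6 to 145 TPM in WT and 221 to 231 TPM in cKO. Of the 7, 5 were higher at an unadjusted p under 0.05 in edgeR, against 1.75% of all genes, with 0 past the adjusted threshold. Sst, the most abundant of them per length, was measured at 7.75 to 9.67 CPM in WT and at 19.3 to 20.3 CPM in cKO. The genotypes overlapped for Gad2, Dlx1, Dlx2 and Lhx6. They did not for Gad1, Dlx5 and Sst, and 9.04% of all genes had no overlap. Erythroid markers, led per length by the globin gene Hba-a1 (184 to 328 CPM), summed to 3272 to 5016 TPM in WT and 3719 to 5893 in cKO. Endothelial markers, led per length by Pecam1 (14.5 to 19.6 CPM), summed to 39.2 to 58.9 and 44.4 to 57.5 TPM. All 4 choroid plexus markers, led per length by Folr1, were under 1 CPM in all 6 libraries. The 12 epidermis markers were all highest in cKO replicate 3, and 9 of them were under 1 CPM in the other 5 libraries. The keratin gene Krt5 gave 130 CPM there and at most 0.062 CPM elsewhere, and the collagen gene Col3a1 of the mesenchyme list gave 181 CPM against 3.25 to 4.52. The cadherins of surface epithelium were among them, with Cdh1 (E-cadherin) at 17.0 CPM in cKO replicate 3 and at most 0.13 CPM in the others. The 10 genes did not stand out in that library, being highest there only for Prkci and lowest for Cdh2, Pard6a and Llgl1. With cKO replicate 3 and the library labelled WT replicate 2 both left out, the log2 fold changes of the 10 genes lay between -0.085 and 0.14, with 0 past an unadjusted p of 0.05.

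To place the 10 genes in their pathway, 95 further genes of junctions, polarity and apical actomyosin were listed in 8 roles. Of these 91 passed the filter on low counts, and Ctnna3, Ocln, Crb3 and Lin7b did not. With edgeR's quasi-likelihood test 0 of the 91 passed the adjusted threshold. At an unadjusted p under 0.05 there were 1 higher gene and 2 lower genes, or 3.30% of the 91, against 3.57% of all genes. The median log2 fold change was -0.01, with 45 values above 0 and 46 below, and the median size of 0.079 was like that of all genes. Genotypes did not overlap for 10 of the 91, 6 with cKO above and 4 with cKO below, which is near the share of 9.04% (4.21% above and 4.83% below) over all genes. The 3 genes under an unadjusted p of 0.05 were Pard6g, Fat4 and Myh10, all with an adjusted p of 0.99995, so none of them is called changed.

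Pard6g, the major Par6 gene in these libraries, gave 61.1, 60.8 and 62.1 CPM in WT replicates 1 to 3 and 68.4, 69.1 and 70.8 CPM in cKO replicates 1 to 3. The cKO libraries were all above the WT libraries, with little spread in either genotype. The log2 fold change was 0.18 (SE 0.058, 95% interval 0.044 to 0.31, unadjusted p = 0.0156, edgeR). Within replicate numbers 1 to 3 the log2 differences were 0.16, 0.19 and 0.19, which without overlap could only be positive. Its paralog Pard6b, at 0.10 (SE 0.10), and its partner genes in the complex showed no such separation. Prkcz stood at -0.07 (SE 0.13) and the small GTPase Cdc42, the most abundant of that group with 462 TPM, at 0.04 (SE 0.10).

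Fat4, a giant cadherin that binds Dchs1, was measured at 414, 366 and 394 CPM in WT replicates 1 to 3 and at 334, 323 and 323 CPM in cKO replicates 1 to 3. The genotypes did not overlap, with the 3 lowest values in cKO. For Fat4 the log2 fold change was -0.26 (SE 0.074, 95% interval -0.43 to -0.090, unadjusted p = 0.00791, edgeR), the smallest p of the 91 genes. Dchs1, its ligand, was at 368 to 524 CPM in WT and 347 to 473 CPM in cKO, with overlapping libraries. Myh10, the nonmuscle myosin heavy chain IIB of the apical actin belt, gave 617, 612 and 625 CPM in WT replicates 1 to 3 and 504, 552 and 541 CPM in cKO replicates 1 to 3. The genotypes did not overlap, and the cKO values were the lower ones. Its log2 fold change was -0.21 (SE 0.072, 95% interval -0.38 to -0.048, unadjusted p = 0.018, edgeR). Rac1, the most abundant gene of the actomyosin group with 353 TPM, stood at 0.05 (SE 0.07).

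In the other roles no gene passed an unadjusted p of 0.05. Among cadherins and catenins (11 tested) Ctnna1 was the most abundant per length, with a log2 fold change of 0.05 (SE 0.12). Cdh11 and Jup had the smallest p-values of that group, 0.0855 and 0.178, and for both of them the highest library was cKO replicate 3, with 137 CPM for Cdh11 against 86.8 to 93.6 in the others. For Cdh11 the genotypes did not overlap, with cKO replicates 1 and 2 at 93.6 and 93.4 CPM and WT at 86.8 to 90.8 CPM. Among nectins and Rap1 regulators (10 tested) Rap1b, a small GTPase, was the most abundant with 97.1 TPM and stood at 0.15 (SE 0.07, unadjusted p = 0.0821), and the exchange factor Rapgef1 stood at -0.20 (SE 0.09, unadjusted p = 0.0675). Among tight junction genes (11 tested) the adhesion receptor Cxadr led with 137 TPM and stood at -0.13 (SE 0.085). F11r and Cgnl1 had the smallest p-values there, 0.114 and 0.124, and both were highest in cKO replicate 3. Whether the tissue make-up of cKO replicate 3, with its epidermis and mesenchyme markers, had a part in these values was not tested.

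In the Crumbs complex (8 tested) Lin7c was the most abundant with 94.4 TPM and stood at -0.10 (SE 0.07). Crb1, an apical transmembrane protein present at only 2.56 TPM, had the smallest p of that group, 0.07, with a log2 fold change of 0.31 (SE 0.15) and no overlap between genotypes. In the basolateral group (13 tested) Cab39, an adaptor of the kinase Lkb1, led with 120 TPM and stood at -0.05 (SE 0.07). Llgl2, the paralog of Llgl1, had the smallest p of that group, 0.119, but gave 3.50 CPM in cKO replicate 3 against 0.81 to 1.38 CPM in the other 5 libraries. Mark3, a Par1 kinase, stood at 0.08 (SE 0.06) without overlap between genotypes. Among the partners of Numb (7 tested) the clathrin adaptor subunit Ap2a1 was the most abundant with 96.8 TPM and stood at 0.04 (SE 0.10). Numbl stood at 0.11 (SE 0.17) and had the smallest p of the group, 0.560, and the ubiquitin ligase Lnx1 had the next smallest, 0.590, at under 1 CPM in every library.

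By position the genes are scattered over the genome. In RefSeq genes of GRCm38.p6 Prkci spans chr3:30995742-31052740, Ctnna2 chr6:76881637-77979815, Tjp1 chr7:65296165-65527850, Pard6a chr8:105701148-105703494 and Pard3 chr8:127063381-127612286. Ctnnb1 spans chr9:120933400-120960507, Llgl1 chr11:60699672-60714186, Numb chr12:83794034-83921942, Afdn chr17:13760391-13905798 and Cdh2 chr18:16588877-16809246. Each value of a gene is a sum over its transcripts, so a change in the use of isoforms within one gene would not show in these values. The spans run from 2347 bases for Pard6a to 1098179 bases for Ctnna2. Pard3 and Pard6a share chromosome 8 but lie far apart.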

How the data were processed

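RNA sequencing of E13.5 cortex was compared between 3 WT and 3 cKO libraries, grouped by genotype and replicate number in the sample titles. For sequencing on the DNBSEQ platform, the authors isolated RNA in Trizol and prepared mRNA libraries. The submitters' processing notes name HISAT2 2.2.1, Bowtie2 2.4.5, RSEM 1.3.1 and GRCm38 (mm10). The annotation and any use of strand are not given in the sources used here, so genes with overlapping exons or close copies are uncertain. The authors deposited estimated counts per gene without depth normalisation, of which 10.9% were not whole numbers and which were rounded here. TPM values, as deposited, served for levels between genes and for 2 alternatives. The FPKM values deposited by the authors and 6 columns of averages were not used. Entrez identifiers were found in RefSeq for 99.7% of genes.

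Genes were kept by filterByExpr (minimum count 10, minimum total 15), which left 13340. The test was edgeR's quasi-likelihood test (edgeR 4.0.16, R 4.3.3) with TMM factors (0.987 to 1.03) and genotype as the only term. P-values were adjusted by Benjamini-Hochberg over all genes tested, with a threshold of 0.05. The SE was the log2 fold change divided by the root of F. A count of 0 allows up to 3 counts, 0.184 to 0.189 CPM, for counting error only. No library pair was a duplicate, with at most 1.66% of genes at equal counts. Replicates are described by the study as independent, and p-values measure the spread between these libraries. Test code was tested on simulated data.

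The 10 genes, the wider list and the marker lists were chosen with earlier results of these data known. Of the wider list, the most abundant gene (by mean TPM) and the 2 with the smallest p of each role were named, of the marker lists the most abundant gene and examples of those that set a library apart. Others named were chosen after their values were seen. Pals1 was matched as Mpp5. Most genes of the wider list are counted and not described singly. Alternatives in scaling were upper-quartile and RLE factors. Alternative filters were none or a minimum of 10 counts in all libraries. Other tests were edgeR's exact test, limma-voom, limma on log2(TPM + 1) and log2(TPM + 0.1) (limma 3.58.1) and DESeq2 1.42.0. A block for the replicate number and fits with libraries left out were also run. Leaving out both libraries numbered 1 was chosen after the data were seen. Sequencing in 3 batches is mentioned for the series, but the libraries of each batch are not named.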

Additional observations from a re-analysis of the deposited data

How the results depend on the processing

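No alternative called any of the 10 genes. Over 18 alternatives their log2 fold changes lay between -0.14 and 0.14, the lowest unadjusted p was 0.131 and the lowest adjusted p 0.689 (both Tjp1). Cdh2 and Tjp1 were below 0 under all 18. The other 8 had the opposite sign in at least 1, in 39 of 180 values. With upper-quartile factors these were Ctnna2 (0.0100), Pard3 (0.0108) and Afdn (0.0093), with no filter Numb (-0.0016), and with limma on log2(TPM + 1) and log2(TPM + 0.1) Afdn (0.00258 and 0.00263). Without both WT replicate 2 and cKO replicate 3 they were Ctnnb1 (0.0053), Ctnna2 (0.0057), Pard3 (0.017), Pard6a (0.14), Prkci (-0.017) and Numb (-0.018), and without both libraries numbered 1 Pard3 (0.077), Pard6a (0.025) and Afdn (0.0063). With 1 library left out at a time the ranges were -0.065 to 0.042 for Ctnnb1, -0.066 to 0.034 for Ctnna2, -0.059 to 0.044 for Pard3, -0.11 to 0.088 for Pard6a, -0.043 to 0.088 for Prkci, -0.044 to 0.048 for Afdn, -0.039 to 0.071 for Numb and -0.10 to 0.036 for Llgl1. The median of all genes lay between -0.0028 and 0.015 under the alternatives.

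Counts over all genes moved more, and the cause was not tested. The adjusted threshold was passed by 2 higher and 2 lower genes with DESeq2, 2 and 1 with edgeR's exact test, 1 and 1 without WT replicate 2 and cKO replicate 3, and 0 to 1 in each direction with 1 library left out. The unadjusted counts, 234 higher and 242 lower, were 390 higher with no filter, 148 higher with DESeq2, 105 and 141 without WT replicate 2 and cKO replicate 3, 481 and 499 without both libraries numbered 1, and 121 to 571 and 118 to 482 with 1 library left out (highest without cKO replicate 1, lowest without WT replicate 3, and 138 higher without cKO replicate 3). For the 91 genes, 1 higher and 2 lower became 3 higher with limma on either TPM scale, 0 and 1 without WT replicate 2 and cKO replicate 3, 9 and 5 without both libraries numbered 1, and 0 to 11 and 1 to 3 with 1 library left out (0 higher and 1 lower without WT replicate 3, 11 higher without cKO replicate 1, 3 higher without WT replicate 1 or cKO replicate 2). Ybx1 passed the adjusted threshold with DESeq2 (-2.996), edgeR's exact test (-2.998), without WT replicate 2 and cKO replicate 3 (-3.49) and without WT replicate 2 (-2.75 to -3.28 with 1 library left out).

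The replicate numbers were not taken to pair the libraries, since the labels do not say what a shared number means. Deviations of same-numbered libraries correlated at 0.41, 0.31 and -0.02 for numbers 1, 2 and 3. The deviations of WT replicates 1 and 2 correlated best with those of the cKO library of the same number. Those of WT replicate 3 correlated best with those of cKO replicate 2. With the replicate number as a block, 1 higher and 1 lower gene passed the adjusted threshold, 476 and 614 the unadjusted one, 6 and 4 of the 91 genes did so, and Ybx1 (-2.95) passed the adjusted one. The block called 0 of the 10 genes. Depth limits Pard6a most, with under 200 counts per library.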
